A study of Mus musculus with 6 samples.

Results

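The 44 genes described here encode collagens, the proteins that modify, assemble and crosslink them, and other structural and matricellular proteins of the extracellular matrix. They were chosen by name as genes of the matrix, with no threshold on their values but with earlier results of these data known. Counts of these genes beside those of all genes are therefore descriptions and not independent support. They matched 44 of the 18857 genes with reads in the deposited tables. By role they comprised 6 fibrillar collagen chains, 6 other collagen chains, 6 basement membrane genes, 12 genes of collagen processing and crosslinking, 6 of fibronectin and elastic fibres and 8 matricellular proteins and proteoglycan-cleaving enzymes. The study measured polyA RNA of KH2 mouse embryonic stem cells (ESCs) of mixed C57BL/6 and 129 background, with 1 library for each of 6 groups. Its stated aim was to follow Mek inhibition in wild-type and in Erk knockout cells, and the loss of Erk itself. KH2 cells received PD0325901, which inhibits Mek, the kinase upstream of the Erk kinases, for 48 hours, or were left untreated. The engineered line, labelled iErk1; Erk KO, was kept on doxycycline (Dox), or sampled 48 or 96 hours after Dox was removed, and a further 96 hour culture received PD0325901 for its final 48 hours. All 6 groups share the KH2 background, and the engineered line after 96 hours without Dox is called Erk KO below. The dose of the inhibitor, the use of feeder cells and the number of clones behind the engineered line were not given in the labels.

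Fibrillar collagens are made as procollagen chains that are hydroxylated on proline and lysine and folded with a dedicated chaperone in the endoplasmic reticulum. After secretion their ends are removed by proteinases, and lysyl oxidases crosslink the resulting fibrils. Mesenchymal cells such as fibroblasts are the typical source of this matrix, whereas the early embryo and its stem cells build mainly basement membrane from laminin, type IV collagen and associated proteins.

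Reads assigned to genes totalled between 9.05 and 9.95 times 1e6 per library, and all 44 genes had reads in all 6 libraries. Levels are in RPKM, that is, reads on a gene per kilobase of its length and per 1e6 assigned reads of the library. Since no group has a second library, ratios compare libraries without a check by replicates, and their exact 95% intervals cover counting error only. Mapk3, which encodes Erk1, had 6.75 RPKM in Erk KO cells and 14.8 RPKM in the same line with Dox, against 52.8 and 56.4 RPKM in treated and untreated KH2 cells. The defining ESC markers were high in every library, with summed levels of 12 genes between 3037 and 4234 RPKM. Summed over 17 fibroblast markers outside the matrix, levels lay between 60.8 and 252 RPKM, and Tcf21 was at 0 in all 6 libraries.

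With PD0325901 the matrix genes took up a larger share of the transcriptome in both cell states. They held 3.04% of all reads in treated KH2 cells (exact interval 3.03 to 3.05) and 1.05% in untreated ones (1.04 to 1.05). In Erk KO cells the share was 1.46% with the inhibitor (1.45 to 1.46) and 0.742% without it (0.737 to 0.747). Col1a1 alone made up 13.6% of the reads on these genes in treated KH2 cells, against 4.33% in untreated ones, and 7.05% in treated Erk KO cells against 1.64% in untreated ones. In RPKM, Col1a1 had the highest level of the 44 genes in treated KH2 cells, whereas Fn1 had the highest in untreated ones. The median level over the 44 genes was 61.6 RPKM in treated and 22.2 RPKM in untreated KH2 cells, and 34.3 RPKM in treated and 11.8 RPKM in untreated Erk KO cells. In bulk RNA, more cells of a type and more RNA per cell cannot be told apart.

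A gene was counted as higher or lower when 4 conditions held. Its log2 ratio of RPKM plus 0.5 was at least 1 in size, its higher library had at least 1 RPKM, both libraries together had at least 20 reads, and the counting interval of the read ratio excluded 1. By this size rule 31 of the 44 genes were higher in treated KH2 cells and 0 lower, where 3.86% of 12787 genes that met the limits on reads and RPKM were higher and 1.22% lower. In Erk KO cells 25 were higher and 0 lower, where 1.34% of 11920 genes were higher and 0.587% lower. The median log2 ratio was 1.64 in KH2 cells and 1.39 in Erk KO cells over the 43 eligible matrix genes, and −0.02 and 0.01 over all eligible genes. The 25 genes counted in Erk KO cells were all among the 31 counted in KH2 cells. Such overlap was general, since over 11668 genes eligible in both, 133 were higher in both and 19 in Erk KO cells alone. Counts by role ran from 6 of 6 fibrillar and 6 of 6 other collagen chains in KH2 cells to 2 of 6 basement membrane genes. In Erk KO cells they ran from 5 of 6 in each of those collagen groups to 0 of 6 basement membrane genes. Other genes typical of fibroblasts moved with these counts, and their part in the result was not tested. Of 17 fibroblast markers outside the matrix 7 were higher in treated KH2 cells (summed level 252 RPKM, against 80.2 RPKM untreated) and 4 in treated Erk KO cells (144 RPKM, against 79.6 RPKM untreated). Cd248 had 94.6 RPKM in treated against 9.72 RPKM in untreated KH2 cells, and 27.5 RPKM in treated against 3.66 RPKM in untreated Erk KO cells, and Thy1 had 56.99 RPKM in treated and 20.6 RPKM in untreated KH2 cells, and 42.9 RPKM in treated and 15.9 RPKM in untreated Erk KO cells. The third of the most abundant markers of that list, Pdpn, had 18.6 RPKM in treated against 16.7 RPKM in untreated KH2 cells, and 29.7 RPKM in treated against 35.2 RPKM in untreated Erk KO cells. Of 9 smooth muscle markers 6 and 4 were higher, with summed levels of 909 RPKM in treated against 198 RPKM in untreated KH2 cells, and 193 RPKM in treated against 60.6 RPKM in untreated Erk KO cells. None of 12 ESC markers passed this size rule in either comparison, although 6 of them passed in the joint fit of both cell states. Of 15 extraembryonic endoderm markers 0 were higher and 2 lower in treated KH2 cells (summed level 61.8 RPKM, against 81.02 RPKM untreated), and 0 were higher or lower in treated Erk KO cells (20.2 RPKM, against 21.9 RPKM untreated). Summed levels of 9 macrophage markers were 15.96 and 16.7 RPKM in treated and untreated KH2 cells and 23.2 and 25.1 RPKM in treated and untreated Erk KO cells. Those of 6 endothelial markers were 21.7 and 25.6 RPKM in treated and untreated KH2 cells and 12.2 and 12.0 RPKM in treated and untreated Erk KO cells. In RPKM, both treated libraries lay above all 4 untreated libraries for 31 of the 44 genes, against 7.50% of 13222 genes with at least 20 reads in all and 1 RPKM in some library. Scaled by TMM, an alternative chosen after seeing the data, they did so for 35 of the 44 genes and 7.21% of all genes.

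**Figure D1:**
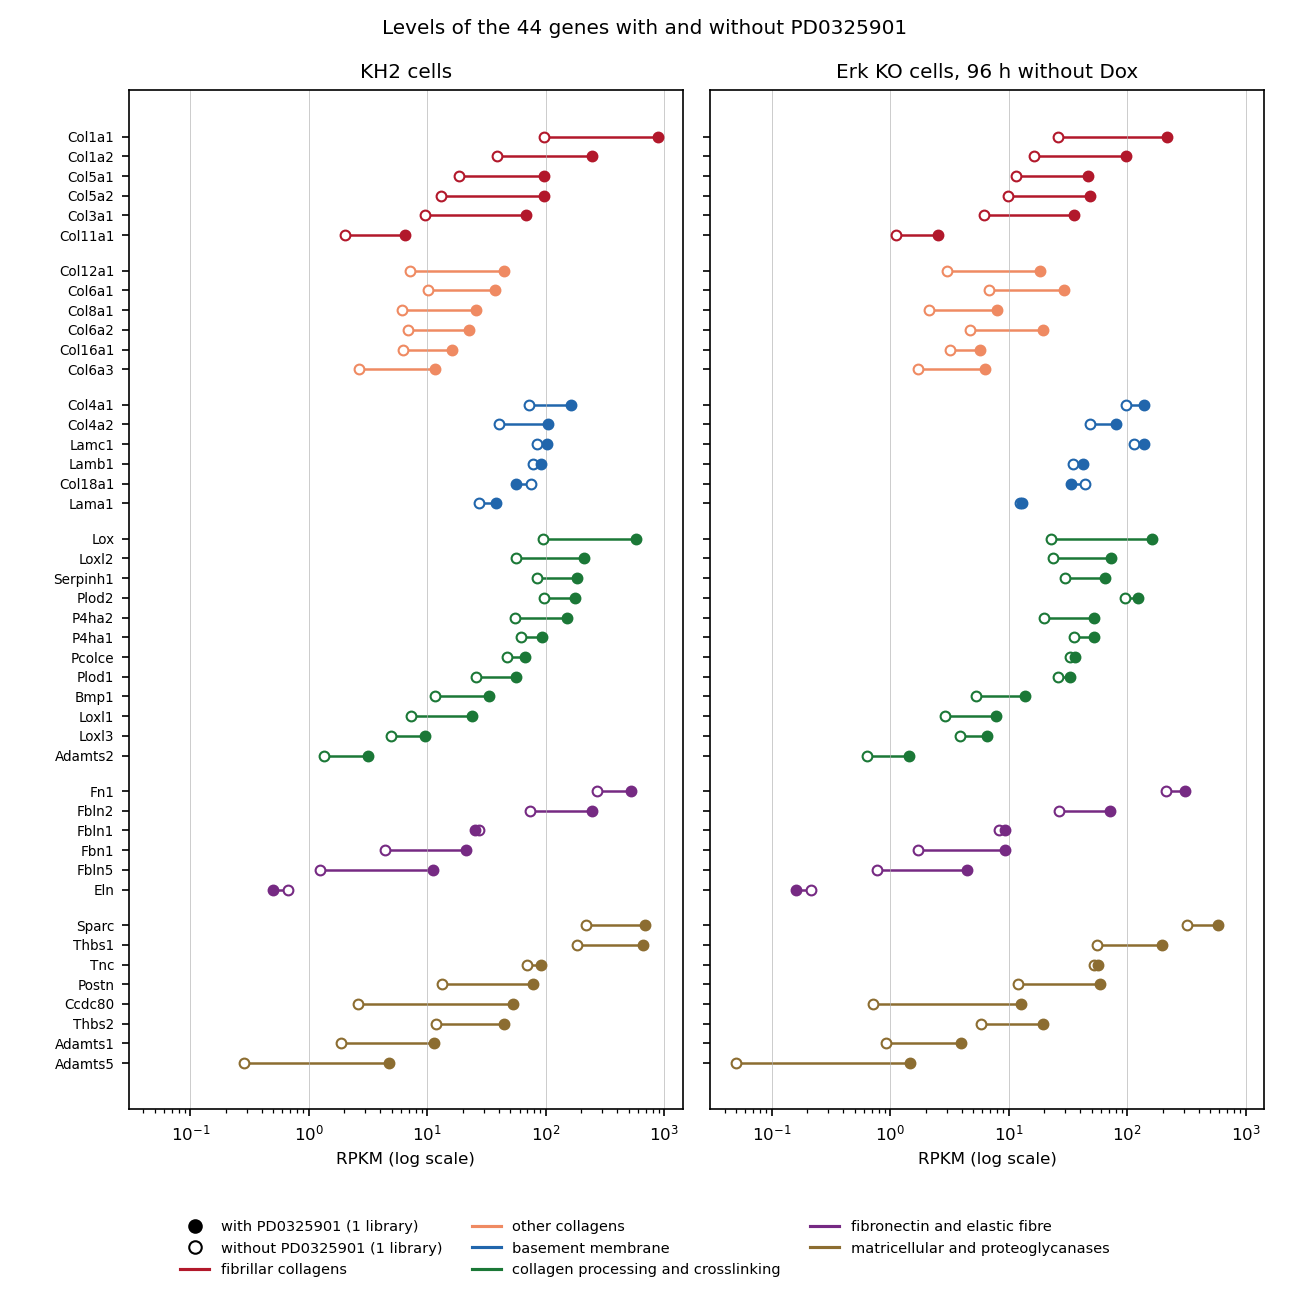
RPKM on a log scale of the 44 genes with PD0325901 (filled circles) and without it (open circles) in KH2 cells (left) and in Erk KO cells (right), 1 library per circle, coloured by role and ordered within a role by the level in treated KH2 cells. The longest lines in both panels belong to Ccdc80, Adamts5 and, some way behind, Col1a1, and the laminin genes and Pcolce show short ones; Col1a1 reaches 878 RPKM in treated KH2 cells.

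Fibrillar collagens had the highest median log2 ratio of the 6 roles, at 2.69 in KH2 cells and 2.32 in Erk KO cells. Col1a1 and Col1a2 encode the chains of type I collagen, the main collagen of bone, skin and tendon. Col1a1 had 878 RPKM in treated and 96.4 RPKM in untreated KH2 cells, and 218 RPKM in treated and 25.9 RPKM in untreated Erk KO cells. The ratio of reads scaled to library totals, with its interval, was 9.11-fold (8.82 to 9.41) in KH2 cells and 8.41-fold (7.92 to 8.93) in Erk KO cells. Col1a2 had 244 RPKM in treated against 38.9 RPKM in untreated KH2 cells, and 98.3 RPKM in treated against 16.5 RPKM in untreated Erk KO cells, or 6.28-fold (5.98 to 6.6) higher in KH2 cells and 5.97-fold (5.55 to 6.43) higher in Erk KO cells. Both treated libraries lay above all 4 untreated ones for each chain. Col1a1 exceeded Col1a2 by a ratio of RPKM of 3.59 (3.51 to 3.67) in treated and 2.47 (2.34 to 2.62) in untreated KH2 cells, and by 2.22 (2.14 to 2.29) in treated and 1.57 (1.44 to 1.72) in untreated Erk KO cells. The counting intervals of treated and untreated libraries did not overlap in either cell state. Type III collagen, which forms thin fibrils together with type I, is encoded by Col3a1, which had 67.5 RPKM in treated and 9.65 RPKM in untreated KH2 cells, and 35.3 RPKM in treated and 6.14 RPKM in untreated Erk KO cells. Type V collagen starts fibril assembly, and its chain genes Col5a1 and Col5a2 were both counted as higher in each cell state. Col5a1 had 97.3 RPKM in treated against 18.4 RPKM in untreated KH2 cells, and 46.5 RPKM in treated against 11.6 RPKM in untreated Erk KO cells. Col5a2 had 96.4 RPKM in treated and 13.1 RPKM in untreated KH2 cells, and 48.1 RPKM in treated and 9.95 RPKM in untreated Erk KO cells. Its increase was 7.35-fold (6.82 to 7.92) in KH2 cells and 4.83-fold (4.44 to 5.26) in Erk KO cells. Col11a1, a chain of the type XI collagen of cartilage fibrils, was the lowest of the 6. It had 6.44 RPKM in treated against 2.03 RPKM in untreated KH2 cells, and 2.54 RPKM in treated against 1.12 RPKM in untreated Erk KO cells, and its log2 ratio of 0.91 in Erk KO cells was below the limit.

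Upstream sequences of 28 of the 44 genes were in the promoter table from RefSeq (GRCm38.p6), and those of 4 fibrillar collagen genes are shown because this group had the highest median ratio. Each run gives the 150 bases before the annotated start on the plus strand, 5′ to 3′, and capitals mark the letters CCAAT or its reverse complement ATTGG, a motif known from the promoters of type I collagen genes. The windows are chr6:4505468-4505617 for Col1a2, chr1:45311388-45311537 for Col3a1, chr2:27886275-27886424 for Col5a1 and chr3:114030390-114030539 for Col11a1.
Col1a2: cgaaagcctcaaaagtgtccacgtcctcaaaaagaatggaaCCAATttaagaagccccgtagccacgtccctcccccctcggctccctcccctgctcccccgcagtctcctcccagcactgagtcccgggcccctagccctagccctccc
Col3a1: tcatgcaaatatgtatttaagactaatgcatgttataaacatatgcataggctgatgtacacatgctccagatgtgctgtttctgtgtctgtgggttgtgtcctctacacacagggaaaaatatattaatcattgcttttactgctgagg
Col5a1: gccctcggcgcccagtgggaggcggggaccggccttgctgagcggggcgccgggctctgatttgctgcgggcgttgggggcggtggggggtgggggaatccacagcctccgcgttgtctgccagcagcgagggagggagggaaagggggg
Col11a1: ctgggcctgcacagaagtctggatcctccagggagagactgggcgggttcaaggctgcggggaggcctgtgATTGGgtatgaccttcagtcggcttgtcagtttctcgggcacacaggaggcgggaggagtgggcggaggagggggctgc
The motif begins 109 bases before the start in Col1a2 and 79 bases before it in Col11a1, and these letters are not in the windows of Col3a1 and Col5a1. In the 250 bases before the start, searched on both strands, CCAAT was found in 9 of the 28 genes (32.1%) and in 34.5% of all 27025 promoters of the table. GGGCGG, the core of a GC box, was found in 20 of the 28 (71.4%) and in 32.9% of all promoters, and TATAAA in 5 of the 28 (17.9%) and in 13.0%. These are descriptions of letters, and neither binding nor their part in the expression of the genes was measured.

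The 6 other collagen chains were all higher in treated KH2 cells, with a median log2 ratio of 1.88, and 5 of 6 in treated Erk KO cells, with a median of 1.80. Col6a1, Col6a2 and Col6a3 encode the chains of type VI collagen, which forms beaded microfilaments around cells. Col6a1 had 37.1 RPKM in treated and 10.1 RPKM in untreated KH2 cells, and 29.04 RPKM in treated and 6.85 RPKM in untreated Erk KO cells. Col6a2 had 22.4 RPKM in treated against 6.87 RPKM in untreated KH2 cells, and 19.4 RPKM in treated against 4.71 RPKM in untreated Erk KO cells. Col6a3 had 11.5 RPKM in treated and 2.64 RPKM in untreated KH2 cells, and 6.32 RPKM in treated and 1.71 RPKM in untreated Erk KO cells. Their log2 ratios lay between 1.64 and 1.94 in KH2 cells and between 1.62 and 2.01 in Erk KO cells. The RPKM ratio of Col6a1 over Col6a2 was 1.65 (1.51 to 1.81) in treated and 1.48 (1.25 to 1.75) in untreated KH2 cells, and 1.5 (1.36 to 1.65) in treated and 1.45 (1.2 to 1.77) in untreated Erk KO cells, with overlapping counting intervals within each cell state. Col12a1 and Col16a1 encode fibril-associated collagens. Col12a1 had the highest ratios of the 6, with 44.5 RPKM in treated against 7.08 RPKM in untreated KH2 cells, and 18.5 RPKM in treated against 3.0 RPKM in untreated Erk KO cells. Col16a1 had 16.2 RPKM in treated and 6.26 RPKM in untreated KH2 cells, and 5.73 RPKM in treated and 3.19 RPKM in untreated Erk KO cells, and its log2 ratio of 0.75 in Erk KO cells did not pass. Col8a1, a chain of a short network-forming collagen of vessel walls and the cornea, had 25.9 RPKM in treated against 6.14 RPKM in untreated KH2 cells, and 7.92 RPKM in treated against 2.14 RPKM in untreated Erk KO cells.

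Basement membrane genes were already among the more abundant matrix transcripts without the inhibitor, and most did not pass the size rule with it. Col4a1 and Col4a2, the chains of the common type IV collagen network, were higher in treated KH2 cells. Col4a1 had 163 RPKM in treated and 71.6 RPKM in untreated KH2 cells, and 138 RPKM in treated and 97.8 RPKM in untreated Erk KO cells. Col4a2 had 103 RPKM in treated against 40.1 RPKM in untreated KH2 cells, and 81.1 RPKM in treated against 48.6 RPKM in untreated Erk KO cells. The read ratio was 2.28-fold (2.19 to 2.36) for Col4a1 and 2.58-fold (2.46 to 2.7) for Col4a2 in KH2 cells, against 1.41-fold (1.37 to 1.46) and 1.67-fold (1.6 to 1.75) in Erk KO cells, where neither passed. Both genes lie head to head on chromosome 8, with annotated starts 21 bases apart on opposite strands in the RefSeq table, and the library protocol does not mark strand, so reads at the shared start cannot be told apart. Lamc1, Lamb1 and Lama1 encode the chains of the first laminin of the embryo. Lamc1 had 102 RPKM in treated and 84.3 RPKM in untreated KH2 cells, and 138 RPKM in treated and 113 RPKM in untreated Erk KO cells. Lamb1 had 90.6 RPKM in treated against 77.3 RPKM in untreated KH2 cells, and 42.02 RPKM in treated against 35.01 RPKM in untreated Erk KO cells. Lama1 had 37.96 RPKM in treated and 27.1 RPKM in untreated KH2 cells, and 12.98 RPKM in treated and 12.5 RPKM in untreated Erk KO cells. None of the 3 laminin genes passed the size rule, and their log2 ratios lay between 0.05 and 0.48 over both comparisons. Col18a1, the core of a basement membrane proteoglycan, was the only basement membrane gene with negative ratios, at −0.4 in KH2 cells and −0.41 in Erk KO cells. It had 56.4 RPKM in treated against 74.5 RPKM in untreated KH2 cells, and 33.3 RPKM in treated against 44.4 RPKM in untreated Erk KO cells.

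Among the 12 genes of processing and crosslinking, the lysyl oxidase genes Lox and Loxl2 had the highest ratios. Lox, the main crosslinking enzyme of collagen and elastin, had 579 RPKM in treated and 93.96 RPKM in untreated KH2 cells, and 161 RPKM in treated and 22.9 RPKM in untreated Erk KO cells. This was 6.16-fold (5.93 to 6.4) higher in KH2 cells and 7.03-fold (6.54 to 7.58) higher in Erk KO cells. Loxl2, a lysyl oxidase that also acts on type IV collagen, had 209.6 RPKM in treated against 55.5 RPKM in untreated KH2 cells, and 73.1 RPKM in treated against 23.7 RPKM in untreated Erk KO cells. Loxl1, which acts in elastic fibre assembly, had 23.9 RPKM in treated and 7.28 RPKM in untreated KH2 cells, and 7.83 RPKM in treated and 2.92 RPKM in untreated Erk KO cells. These 3 lysyl oxidase genes passed in both comparisons, whereas Loxl3 did not, at log2 ratios of 0.87 in KH2 cells and 0.7 in Erk KO cells. The hydroxylases were less uniform. P4ha2, a catalytic subunit of collagen prolyl hydroxylase, passed in both comparisons, with 152 RPKM in treated against 55.01 RPKM in untreated KH2 cells, and 52.5 RPKM in treated against 19.7 RPKM in untreated Erk KO cells. Another catalytic subunit gene, P4ha1, did not pass, at log2 ratios of 0.59 in KH2 cells and 0.53 in Erk KO cells. Of the lysyl hydroxylase genes, Plod1 passed in KH2 cells alone, with 56.5 RPKM in treated and 25.96 RPKM in untreated KH2 cells, and 32.8 RPKM in treated and 26.1 RPKM in untreated Erk KO cells. Plod2, which modifies the ends of collagen chains for crosslinking, had 178 RPKM in treated against 96.2 RPKM in untreated KH2 cells, and 124 RPKM in treated against 95.9 RPKM in untreated Erk KO cells and did not pass in either. Serpinh1, the collagen chaperone of the endoplasmic reticulum, had 184 RPKM in treated and 83.8 RPKM in untreated KH2 cells, and 65.1 RPKM in treated and 29.9 RPKM in untreated Erk KO cells. It was 2.2-fold (2.08 to 2.33) higher in KH2 cells and 2.18-fold (1.99 to 2.38) higher in Erk KO cells. The RPKM ratio of Col1a1 over Serpinh1 was 4.76 (4.6 to 4.92) in treated against 1.15 (1.09 to 1.21) in untreated KH2 cells, and 3.35 (3.17 to 3.53) in treated against 0.867 (0.789 to 0.952) in untreated Erk KO cells. Bmp1, the proteinase that removes the carboxyl end of procollagen, had 33.2 RPKM in treated against 11.5 RPKM in untreated KH2 cells, and 13.7 RPKM in treated against 5.24 RPKM in untreated Erk KO cells and passed in both. Its enhancer gene Pcolce and Adamts2, which removes the amino end, did not pass, and Adamts2 had at most 3.13 RPKM in any library.

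Fn1 encodes fibronectin, on which collagen fibrils are first laid down, and it was the most abundant of its group. It had 528 RPKM in treated and 269 RPKM in untreated KH2 cells, and 309 RPKM in treated and 213 RPKM in untreated Erk KO cells. Its read ratio was 1.96-fold (1.93 to 2.0) in KH2 cells and 1.45-fold (1.43 to 1.48) in Erk KO cells, and the log2 ratio of 0.97 in KH2 cells lay just under the limit of 1. Fbn1, which encodes the microfibril protein fibrillin, had 21.1 RPKM in treated against 4.36 RPKM in untreated KH2 cells, and 9.32 RPKM in treated against 1.7 RPKM in untreated Erk KO cells. Fbln2, a fibulin of microfibrils and basement membranes, had 247 RPKM in treated and 74.1 RPKM in untreated KH2 cells, and 71.6 RPKM in treated and 26.6 RPKM in untreated Erk KO cells. Fbln5, a fibulin needed for elastic fibre assembly, had 11.1 RPKM in treated against 1.25 RPKM in untreated KH2 cells, and 4.44 RPKM in treated against 0.767 RPKM in untreated Erk KO cells. These 3 genes passed in both comparisons, with log2 ratios between 1.41 and 2.73. Fbln1 did not, and had 25.4 RPKM in treated and 27.5 RPKM in untreated KH2 cells, and 9.27 RPKM in treated and 8.31 RPKM in untreated Erk KO cells. Eln, which encodes elastin, had too few reads to be counted, with 17 reads in treated and 23 in untreated KH2 cells and 6 in treated and 8 in untreated Erk KO cells.

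Matricellular genes covered the widest range of ratios. Ccdc80, a secreted matrix-binding protein, had the highest log2 ratios of RPKM plus 0.5 among the 44 genes in both comparisons. It had 52.95 RPKM in treated against 2.59 RPKM in untreated KH2 cells, and 12.6 RPKM in treated against 0.716 RPKM in untreated Erk KO cells, which was 20.4-fold (16.4 to 25.7) higher in KH2 cells and 17.6-fold (11.8 to 27.2) higher in Erk KO cells. Adamts5 and Adamts1 encode enzymes that cleave proteoglycans such as versican. Adamts5 had 348 reads in treated and 21 in untreated KH2 cells, and 117 in treated and 4 in untreated Erk KO cells. Its levels were 4.75 RPKM in treated and 0.285 RPKM in untreated KH2 cells, and 1.47 RPKM in treated and 0.0496 RPKM in untreated Erk KO cells. The read ratio was 16.6-fold (10.7 to 27.2) in KH2 cells and 29.6-fold (11.3 to 111) in Erk KO cells, where 4 reads in the untreated library leave a wide interval. Adamts1 had 11.4 RPKM in treated against 1.88 RPKM in untreated KH2 cells, and 3.96 RPKM in treated against 0.922 RPKM in untreated Erk KO cells. Postn, which encodes periostin, a collagen-binding protein that promotes crosslinking, had 77.8 RPKM in treated and 13.3 RPKM in untreated KH2 cells, and 58.7 RPKM in treated and 12.04 RPKM in untreated Erk KO cells. Thbs1 and Thbs2 encode thrombospondins, which bind matrix and growth factors. Thbs1 had 656 RPKM in treated against 185 RPKM in untreated KH2 cells, and 195 RPKM in treated against 55.4 RPKM in untreated Erk KO cells. Thbs2 had 44.5 RPKM in treated and 11.8 RPKM in untreated KH2 cells, and 19.5 RPKM in treated and 5.8 RPKM in untreated Erk KO cells. Log2 ratios of these 2 thrombospondin genes lay between 1.66 and 1.88. Sparc, a collagen-binding protein abundant in embryonic basement membrane, had 687 RPKM in treated against 219 RPKM in untreated KH2 cells, and 578 RPKM in treated against 318 RPKM in untreated Erk KO cells. Its log2 ratio passed in KH2 cells at 1.64, against 0.86 in Erk KO cells. Tnc, which encodes tenascin-C, did not pass in either comparison, at log2 ratios of 0.38 in KH2 cells and 0.1 in Erk KO cells.

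The 4 libraries of these comparisons were also fitted together, with cell state as a block, to test for a shared effect of PD0325901. By edgeR's quasi-likelihood test, Benjamini-Hochberg adjusted over 14782 genes, 36 of the 44 genes rose and 1 fell, where 6.05% of all genes rose and 2.92% fell. The median log2 fold change was 1.53 over the 44 genes and −0.01 over all genes. Each gene had 1 residual degree of freedom, from how far the ratios of the cell states differ, and a median of 13.8 prior degrees of freedom borrowed across genes. Without the block the same test called 0 genes in either direction, with 25 of the 44 and 270 of all genes at an unadjusted p under 0.05, and DESeq2 with the block called 36 of the 44 higher and 0 lower. With all 6 libraries fitted in 3 states edgeR called 23 of the 44 higher and 0 lower, and 103 of all genes higher and 15 lower. These 23 include Col1a1, Lox and Ccdc80. For Col1a1 edgeR estimated, with the block and 4 libraries, a log2 change of 3.13 with SE 0.0935 and adjusted p 3.33e-11. The same edgeR fit gave Lox a log2 change of 2.72 (SE 0.0942, adjusted p 5.93e-11) and Ccdc80 4.29 (SE 0.148, adjusted p 5.93e-11). With 6 libraries the SE was 0.162 for Col1a1, 0.289 for Lox and 0.238 for Ccdc80. The adjusted p of edgeR was then 0.000333 for Col1a1, 0.00461 for Lox and 0.000695 for Ccdc80. Several genes below the 2-fold limit of the size rule passed this test with 4 libraries and not with 6, among them Fn1 (log2 fold change 0.76), Plod2 (0.63), P4ha1 (0.57) and Loxl3 (0.86). With 6 libraries edgeR's adjusted p was 0.1 for Fn1, 0.413 for Plod2, 0.315 for P4ha1 and 0.0853 for Loxl3. Col4a1, which passed the size rule in KH2 cells and not in Erk KO cells, had a log2 change of 0.84 with SE 0.129 and adjusted p 0.00059 in the edgeR fit of 4 libraries, and adjusted p 0.115 with 6. Col18a1 was the 1 gene that fell in the edgeR fit of 4 libraries, at a log2 change of −0.41 with SE 0.0916 and adjusted p 0.0104, and its adjusted p was 0.614 with 6. The 7 genes that did not pass were Lama1, Lamb1, Lamc1, Pcolce, Fbln1, Eln and Tnc, with edgeR's adjusted p between 0.0518 for Lamc1 and 0.987 for Fbln1. Cell type markers, those of ESCs among them, moved in the same edgeR fit of 4 libraries, and their part in the result was not tested. It called 9 of the 17 fibroblast markers and 6 of the 9 smooth muscle markers higher and 0 lower. Of the 12 ESC markers it called Nanog (log2 fold change 0.68), Tfcp2l1 (0.68) and Klf4 (0.53) higher and Tdgf1 (−0.44), Dppa4 (−0.54) and Lin28a (−0.67) lower. Of 15 extraembryonic endoderm markers Cubn (−2.1) and Lrp2 (−1.06) were lower. DESeq2 with the block called 4 fibroblast and 6 smooth muscle markers higher, 2 ESC markers higher and 2 lower, and Cubn lower. With 6 libraries edgeR called 3 fibroblast markers and none of the other 3 lists, where 7 smooth muscle, 2 ESC and 3 extraembryonic endoderm markers had an unadjusted p under 0.05.

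The comparisons with PD0325901 share no library, and over the 43 genes eligible in both Pearson's r between the log2 ratios was 0.949 and Spearman's rho 0.946, against 0.684 and 0.529 over 11668 genes. These are correlations across genes, which are not independent replicates. The ratio was larger in KH2 cells for 36 of the 43 genes (83.7%), against 47.8% of all genes. The median difference in log2 ratio, KH2 minus Erk KO, was 0.30 over the 43 genes. Most of all genes passed in neither comparison, so the 47.8% is not a share of responding genes. Over the 11668 genes 274 were counted as higher in KH2 cells alone and 19 in Erk KO cells alone. More calls in KH2 cells were thus not particular to the matrix genes. Of the 44 genes, Col11a1, Col16a1, Col4a1, Col4a2, Plod1 and Sparc were counted as higher in KH2 cells alone. A difference in the effect, Erk KO minus KH2, was tested with edgeR's quasi-likelihood test over all 6 libraries. The libraries 48 and 96 hours after Dox withdrawal were taken as 1 state, so both untreated ones served as its reference. Its estimates are thus not the differences between the ratios above, which use the 96 hour library alone. The test called 0 of 15103 genes and 0 of the 44, with 129 and 1 at an unadjusted p under 0.05, and DESeq2 called 0 as well. Sparc was that gene, at a log2 difference of −0.91 (SE 0.417, edgeR p 0.0481 before and 1 after adjustment). For Col4a1 the log2 difference was −0.39 (SE 0.454), for Col4a2 −0.42 (SE 0.407) and for Col16a1 −0.07 (SE 0.596). These errors leave room for differences of the size seen between the comparisons, so the inhibitor's effect was not shown to differ between the cell states for any of the 44 genes.

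**Figure D2:**
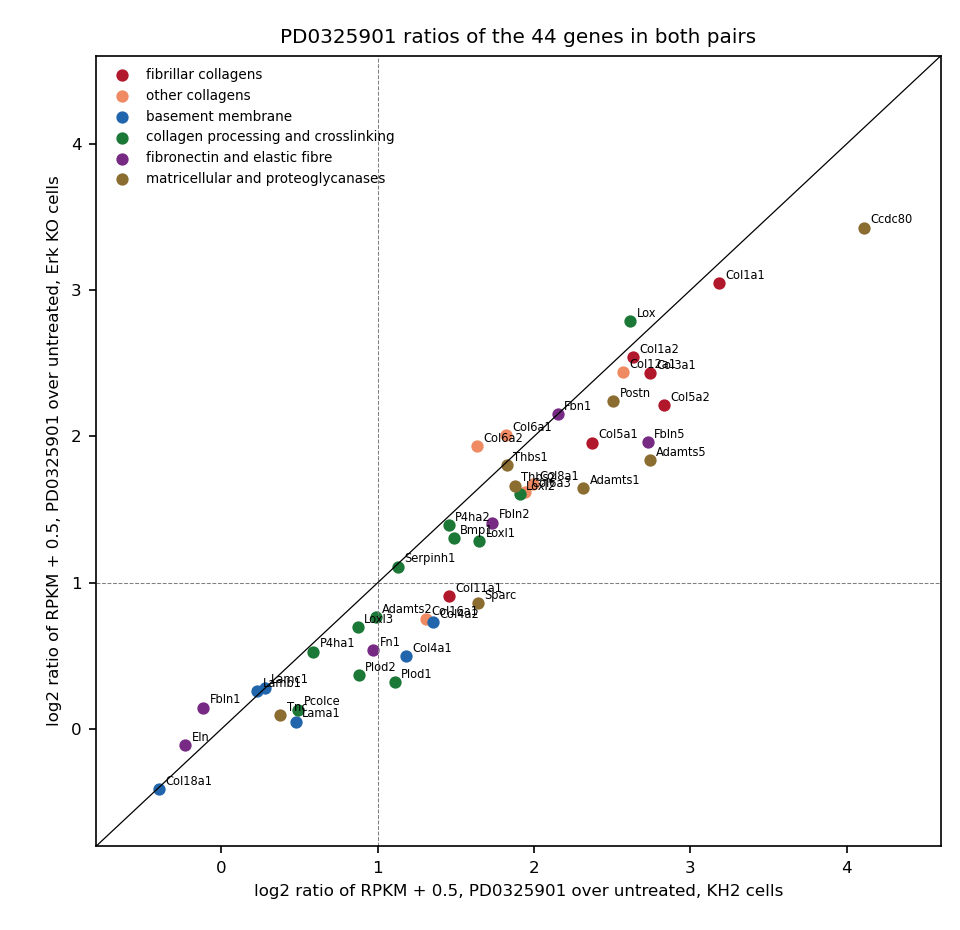
Log2 ratios of RPKM plus 0.5, PD0325901 over untreated, in Erk KO cells (vertical axis) against KH2 cells (horizontal axis) for the 44 genes, 1 point per gene coloured by role; the dashed lines mark the limit of 1 and the solid line marks equal ratios. Most points lie below the solid line, with 36 of 43 eligible genes at a larger ratio in KH2 cells.

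Outside the 44 genes, the rest of the matrix was followed with 5 lists of related genes. Of 29 other collagen chains 3 were higher in treated KH2 cells and 1 in treated Erk KO cells, and 0 lower in either, but 13 and 10 of them were eligible. Col4a5, a type IV chain of specialised basement membranes, was the 1 gene higher in both, at log2 ratios of 1.95 in KH2 cells and 1.54 in Erk KO cells. Of 19 other basement membrane genes Lama4, a laminin chain of vessels and mesenchyme, was the only one higher, in both cell states (1.72 in KH2 cells and 1.55 in Erk KO cells). Of 22 other modifying and processing genes 5 were higher in treated KH2 cells, among them P3h4 (1.82), P4ha3 (1.35) and Fkbp10 (1.21), which act on procollagen in the endoplasmic reticulum, and 0 in treated Erk KO cells. Of 28 other elastic fibre and matricellular genes 9 were higher and 1 lower in treated KH2 cells, and 4 higher and 0 lower in treated Erk KO cells. Ccn2, a matricellular gene known as a target of TGF-beta and of the mechanosensitive factor Yap, passed in both (2.0 in KH2 cells and 1.51 in Erk KO cells). Of 17 matrix receptors 3 were higher in treated KH2 cells, and 1 was higher and 1 lower in treated Erk KO cells. Itga11, the integrin chain of a collagen receptor of fibroblasts, was higher in both (2.44 in KH2 cells and 1.98 in Erk KO cells).

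Few of these genes differed by the size rule after Dox was withdrawn without the inhibitor. After 48 hours 0 of the 44 were higher and 1 lower than with Dox, where 2.77% of 11386 genes were higher and 2.13% lower. After 96 hours 5 were higher and 1 lower, where 7.62% of 11804 genes were higher and 2.07% lower. The comparisons share the library with Dox, so they are not independent of each other. The median log2 ratio of the 39 eligible matrix genes was 0.04 at 48 hours and 0.38 at 96 hours, against −0.03 and 0.05 over all eligible genes. All 5 higher genes at 96 hours encode enzymes of collagen hydroxylation or crosslinking. Plod2 had 30.8 RPKM with Dox, 31.2 RPKM after 48 hours and 95.9 RPKM after 96 hours without it, and was 3.11-fold (2.91 to 3.34) higher at 96 hours than with Dox. P4ha1 had 10.2 RPKM with Dox, 16.9 RPKM after 48 hours and 35.8 RPKM after 96 hours without it, and was 3.5-fold (3.13 to 3.93) higher. P4ha2 had 6.33 RPKM with Dox, 7.85 RPKM after 48 hours and 19.7 RPKM after 96 hours without it, or 3.11-fold (2.56 to 3.79) higher. Loxl2 had 6.95 RPKM with Dox, 8.09 RPKM after 48 hours and 23.7 RPKM after 96 hours without it, and was 3.41-fold (3.02 to 3.85) higher at 96 hours. Lox had 9.64 RPKM with Dox, 10.3 RPKM after 48 hours and 22.9 RPKM after 96 hours without it, or 2.37-fold (2.08 to 2.7) higher. At 48 hours the read ratio to the library with Dox was 1.01-fold (0.93 to 1.1) for Plod2, 1.24-fold (0.986 to 1.56) for P4ha2 and 1.65-fold (1.46 to 1.88) for P4ha1, the highest of the 5. These enzymes are also known from other cell types as genes induced by low oxygen. In a list of 15 hypoxia-inducible genes outside the matrix, written after these values were seen, 8 were higher and 0 lower at 96 hours, and their part in the result was not tested.

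The gene lower at 96 hours was Lama1, which had 29.7 RPKM with Dox, 24.6 RPKM after 48 hours and 12.5 RPKM after 96 hours without it. At 48 hours the lower gene was Col18a1, which had 58.6 RPKM with Dox, 28.6 RPKM after 48 hours and 44.4 RPKM after 96 hours without it, so its level at 96 hours stood nearer to that with Dox. Lamc1, the most abundant laminin chain of this line, had 120.2 RPKM with Dox, 151 RPKM after 48 hours and 113 RPKM after 96 hours without it. The RPKM ratio of Lamc1 over Lama1 was 4.05 (3.88 to 4.23) with Dox, 6.13 (5.86 to 6.42) after 48 hours and 9.05 (8.52 to 9.63) after 96 hours, and 3.11 (2.96 to 3.26) in untreated KH2 cells. Markers of extraembryonic endoderm, a cell type that makes much laminin and type IV collagen, were also followed in this series. Of 15 such markers 6 were lower at 96 hours and 0 higher, with summed levels of 53.7, 43.6 and 21.9 RPKM with Dox, after 48 hours and after 96 hours, and none of the 15 was at 0 in any library. Their most abundant members were Dab2, Thbd and Gata4, and Dab2 had 13.7 RPKM with Dox, 13.00 RPKM after 48 hours and 2.93 RPKM after 96 hours without it. Over the same series the type IV chains were higher at 96 hours, at 97.8 against 53.7 RPKM with Dox for Col4a1 and 48.6 against 33.4 RPKM for Col4a2. In treated against untreated KH2 cells Lama1 was higher (37.96 against 27.1 RPKM) and the summed level of the markers lower (61.8 against 81.02 RPKM). The part of these markers in the level of Lama1 was not tested.

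None of the 12 fibrillar and other collagen chains passed at either time. Col1a1 had 17.2 RPKM with Dox, 17.7 RPKM after 48 hours and 25.9 RPKM after 96 hours without it, and Col1a2 had 13.1 RPKM with Dox, 13.5 RPKM after 48 hours and 16.5 RPKM after 96 hours without it. Col3a1 had 3.61 RPKM with Dox, 2.83 RPKM after 48 hours and 6.14 RPKM after 96 hours without it. The levels of all 3 at 96 hours were above those with Dox, by less than the limit. With Dox, after 48 and after 96 hours, Col5a1 had 7.43, 6.36 and 11.6 RPKM, Col5a2 8.02, 9.13 and 9.95 RPKM and Col11a1 0.979, 1.78 and 1.12 RPKM. The type VI chains stood, in these conditions, at 6.18, 5.27 and 6.85 RPKM for Col6a1, 3.53, 3.18 and 4.71 RPKM for Col6a2 and 1.47, 0.95 and 1.71 RPKM for Col6a3. Col8a1 had 1.5, 2.0 and 2.14 RPKM, Col12a1 2.32, 2.13 and 3.0 RPKM and Col16a1 1.53, 1.36 and 3.19 RPKM. All 12 chains had positive log2 ratios at 96 hours, with medians of 0.45 for the fibrillar and 0.34 for the other collagens. Type IV chains had 53.7, 58.5 and 97.8 RPKM for Col4a1 and 33.4, 33.8 and 48.6 RPKM for Col4a2. Among processing genes with Dox, after 48 and after 96 hours, Loxl1 had 3.53, 2.69 and 2.92 RPKM, Plod1 13.6, 14.00 and 26.1 RPKM, Serpinh1 52.9, 40.2 and 29.9 RPKM and Bmp1 4.48, 4.8 and 5.24 RPKM. Serpinh1, at a log2 ratio of −0.81 at 96 hours, did not pass. With Dox, after 48 and after 96 hours, Fn1 had 151, 193 and 213 RPKM, Fbn1 2.11, 2.36 and 1.7 RPKM, Fbln2 20.3, 22.7 and 26.6 RPKM and Fbln5 0.649, 0.839 and 0.767 RPKM. Sparc, the most abundant of the 44 genes in this line, had 248, 351 and 318 RPKM, Thbs1 40.3, 44.3 and 55.4 RPKM and Thbs2 3.25, 3.27 and 5.8 RPKM. Over the same series Postn had 9.15, 10.2 and 12.04 RPKM, Ccdc80 1.57, 1.1 and 0.716 RPKM and Adamts1 0.78, 0.693 and 0.922 RPKM, and Adamts5 had 8, 10 and 4 reads. Among matricellular genes 0 of 8 passed at either time.

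**Figure D3:**
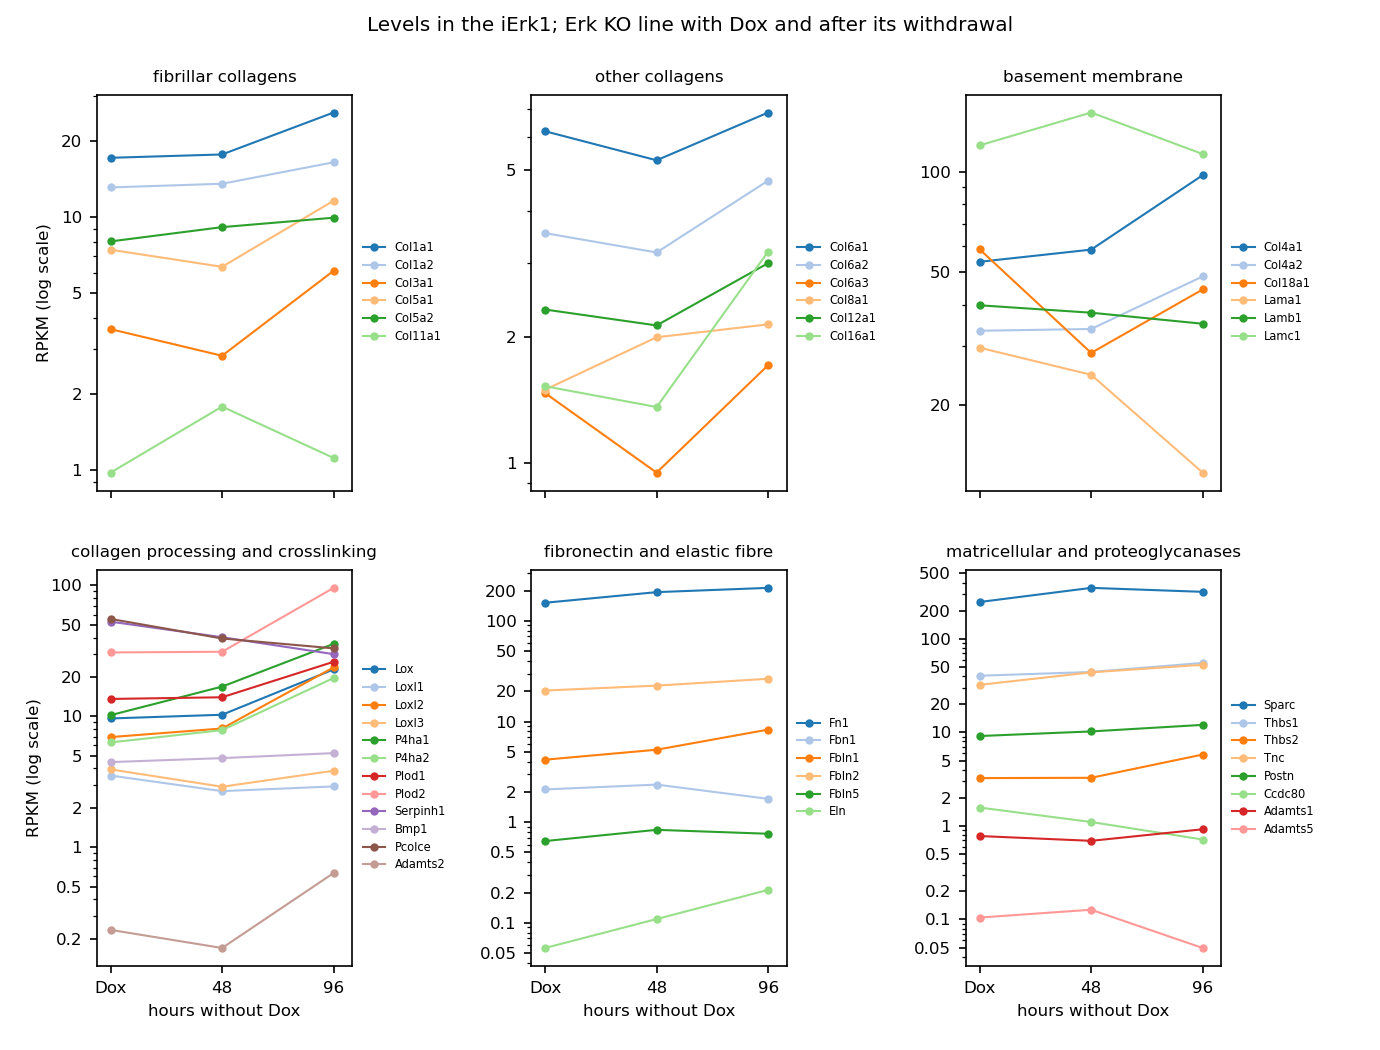
RPKM (log scale) of the 44 genes in the iErk1; Erk KO line with Dox and after 48 and 96 hours without it, 1 library per point, in 6 panels by role with their own axes. In the panel of processing and crosslinking genes Plod2, P4ha1, P4ha2, Loxl2 and Lox stand higher at 96 hours, and in the basement membrane panel Lama1 stands lower.

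Of the related lists outside the 44 genes, the 29 other collagen chains had 4 eligible genes at 48 hours and 6 at 96 hours. At each time 2 were higher, Col9a2, a chain of a cartilage collagen, and Col5a3, a minor type V chain. At 48 hours 1 was lower, and at 96 hours 0. Col9a2 had 2.63 RPKM with Dox, 13.3 RPKM after 48 hours and 18.99 RPKM after 96 hours without it. Col5a3 had 1.68 RPKM with Dox, 4.2 RPKM after 48 hours and 6.98 RPKM after 96 hours without it. Nid1, which encodes the basement membrane linker nidogen, was the 1 of 19 other basement membrane genes higher at 48 hours, with 49.3 RPKM with Dox, 101 RPKM after 48 hours and 101 RPKM after 96 hours without it. At 96 hours it was 1 of 4, together with Lama4, Npnt and Smoc1. Of 17 matrix receptors Itgb3, an integrin chain, was the only one higher at 48 hours, and 2 were lower. Itgb3 had 1.69 RPKM with Dox, 5.01 RPKM after 48 hours and 4.89 RPKM after 96 hours without it. At 96 hours 3 receptors were higher and 0 lower. Of 28 other elastic fibre and matricellular genes 0 were higher and 1 lower at 48 hours, and 1 was higher and 2 lower at 96 hours. Of 22 other modifying and processing genes 0 were higher or lower at either time.

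The engineered line kept with Dox already differed from KH2 cells in its matrix genes. None of the 44 was higher and 19 were lower, where 2.76% of 12421 genes were higher and 21.4% lower. This comparison shares its libraries with others, and the lines differ in more than Erk, so genotype, derivation and culture with Dox cannot be told apart. All genes were shifted between these libraries, with a median log2 ratio of −0.37, and the median of the matrix genes was −0.93. Scaling by TMM moved the medians to 0.02 and −0.56. It also moved the share of higher genes among those counted from 11.4% to 41.5%, or to 46.3% with DESeq2 size factors. Both scalings left 15 matrix genes lower and 0 higher. Over all genes 1419 of 12257 were lower with TMM and 1325 of 12244 with DESeq2 size factors. The 4 genes no longer counted were Col3a1, Col5a1, Bmp1 and Tnc. By role, 7 of 12 processing genes, 4 of 6 fibrillar collagens, 3 of 6 other collagens, 3 of 8 matricellular genes, 2 of 6 genes of fibronectin and elastic fibre and 0 of 6 basement membrane genes were lower.

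Lox, at 9.64 RPKM in the line with Dox and 93.96 RPKM in KH2 cells, was 9.74-fold (8.69 to 10.95) lower. With TMM scaling it had 10.9 RPKM in the line and 79.9 RPKM in KH2 cells, and the folds below are scaled to library totals. P4ha2 was 8.69-fold (7.27 to 10.5) lower and Loxl2 7.99-fold (7.13 to 8.98) lower. P4ha1 was 6.07-fold (5.45 to 6.77) lower, and Plod2 3.12-fold (2.91 to 3.35) lower. The 5 hydroxylase and crosslinking genes that were higher 96 hours after Dox withdrawal were thus all among those lower in the line with Dox, and both comparisons use the library with Dox. After 96 hours without Dox, Plod2 stood at 95.9 RPKM against 96.2 RPKM in KH2 cells (100.1 and 81.8 RPKM with TMM scaling), while Lox stood at 22.9 RPKM against 93.96 RPKM in KH2 cells. Col1a1 was 5.62-fold (5.2 to 6.08) lower, at 17.2 RPKM against 96.4 RPKM in KH2 cells, and Col1a2 2.97-fold (2.71 to 3.26) lower. Fbln1, a fibulin gene that passed neither the size rule nor the common test with PD0325901, was 6.6-fold (5.48 to 7.99) lower in the line with Dox, and Thbs1 was 4.58-fold (4.37 to 4.8) lower. Scaled to library totals, basement membrane genes lay closer to KH2 levels. Lamc1 had 120.2 RPKM in the line with Dox and 84.3 RPKM in KH2 cells, and Lama1 had 29.7 RPKM in the line and 27.1 RPKM in KH2 cells. Lamb1, on this scale the farthest of the laminin genes, had 39.8 RPKM in the line and 77.3 RPKM in KH2 cells. With TMM scaling Lamc1 was the farthest, at 136 RPKM in the line and 71.7 RPKM in KH2 cells. In that order and scaling, Lama1 had 33.5 and 23.1 RPKM and Lamb1 44.9 and 65.7 RPKM. The RPKM ratio of Lamc1 over Lamb1 was 3.02 (2.88 to 3.17) in the line with Dox and 1.09 (1.05 to 1.14) in KH2 cells. Sparc had 248 RPKM in the line with Dox and 219 RPKM in KH2 cells, a log2 ratio of 0.18, and with TMM scaling 279 and 186 RPKM. Of the 17 fibroblast markers 3 were lower, with summed levels of 60.8 RPKM in the line with Dox and 80.2 RPKM in KH2 cells, and their part in these differences was not tested.

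Of the 25 genes higher with PD0325901 in both cell states, 13 were also lower in the line with Dox than in KH2 cells. They were Col1a1, Col1a2, Col3a1, Col5a1, Col8a1, Col12a1, Lox, Loxl2, P4ha2, Bmp1, Fbln2, Thbs1 and Thbs2. Scaled by TMM, Col3a1, Col5a1 and Bmp1 were no longer among the lower genes. For 11 of the 13 genes treated Erk KO cells had more RPKM than untreated KH2 cells. Scaled by TMM or by DESeq2 size factors, alternatives chosen after seeing the data, this held for 13 of 13. The 13 genes were picked by comparisons that use these same libraries, which favours such an order. No share over all genes picked in the same way was computed, so these counts are descriptions only. Col1a1 had 218 RPKM in treated Erk KO cells and 96.4 RPKM in untreated KH2 cells, and Col12a1 had 18.5 RPKM in treated Erk KO cells and 7.08 RPKM in untreated KH2 cells. The genes that changed sides with the scaling were P4ha2, at 52.5 RPKM in treated Erk KO cells and 55.01 RPKM in untreated KH2 cells, and Fbln2, at 71.6 RPKM in treated Erk KO cells and 74.1 RPKM in untreated KH2 cells. With TMM scaling P4ha2 had 54.7 RPKM in treated Erk KO cells and 46.8 RPKM in untreated KH2 cells, and Fbln2 had 74.5 RPKM in treated Erk KO cells and 63.0 RPKM in untreated KH2 cells.

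**Figure D4:**
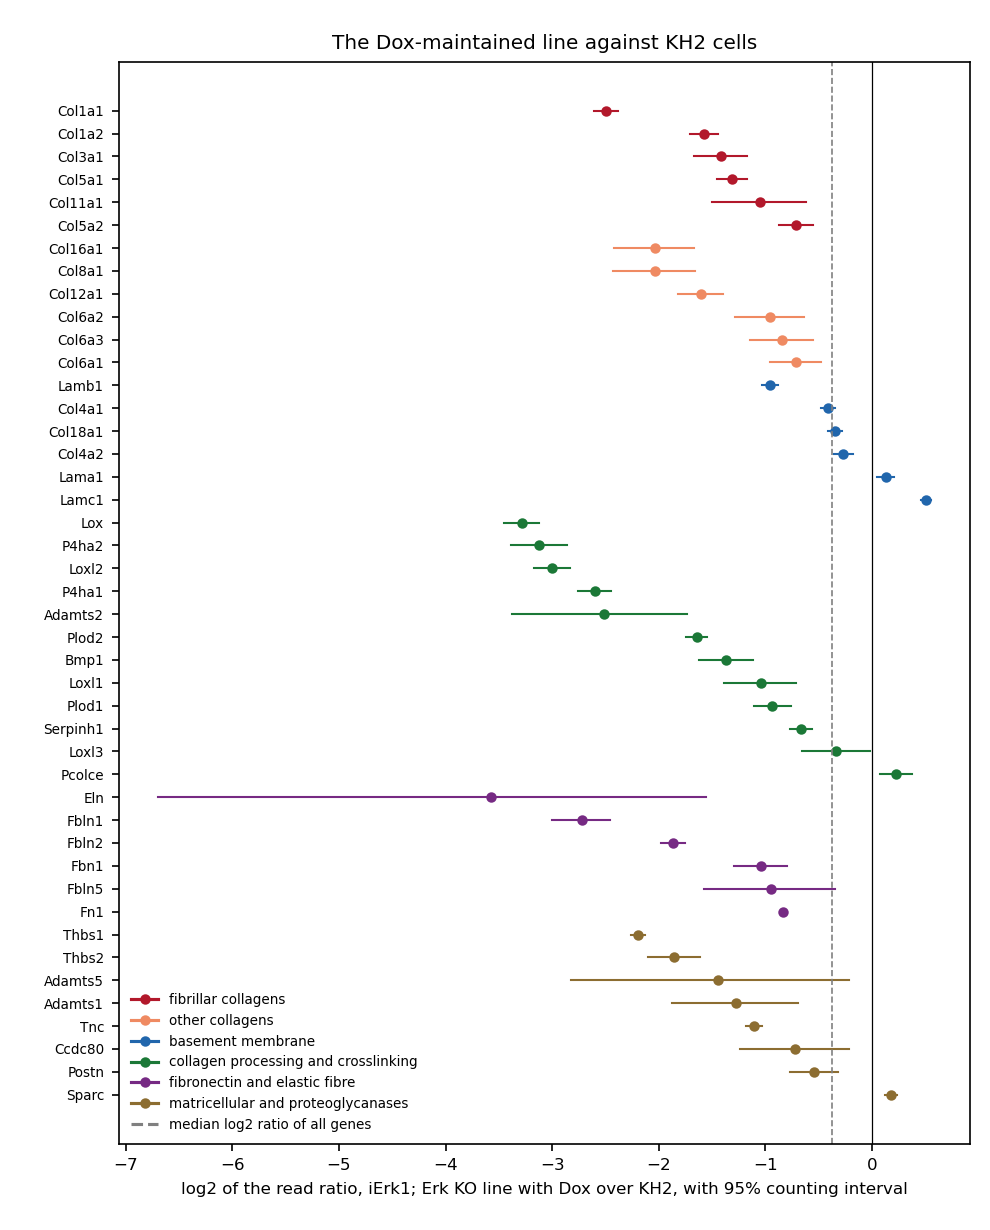
Log2 of the read ratio, scaled to library totals, of the 44 genes in the iErk1; Erk KO line with Dox over KH2 cells, 1 library each, with exact 95% counting intervals as horizontal lines, coloured by role; the dashed line marks the median log2 ratio of all genes (−0.37, computed on RPKM plus 0.5). Lox, P4ha2, Loxl2, Fbln1, P4ha1 and Col1a1 lie far left of that line. So do Eln, with 2 reads in the engineered line and 23 in KH2 cells, and Adamts2, with 16 and 88. The basement membrane genes, except Lamb1, lie near or right of the dashed line.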

How the data were processed

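PolyA RNA of 6 mouse ESC libraries was sequenced as single-end reads of 50 nt, per the labels. Each file holds, per the file headers, a count of unique reads for each gene, made by the authors, and these counts add up to the library total. RPKM, also made by the authors per the file headers, is that count per kilobase of the gene and 1e6 library reads, and recomputing it from the counts gave the same values. The percent of the gene covered by reads, deposited beside these, was not used for any result. Per the submitters' processing notes the build is mm9; aligner and annotation are not given in the sources used here.

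Joining by NCBI gene ID gave 18857 genes, those without a row in a file were set to 0, and symbols for 18805 genes came from RefSeq by gene ID. The 44 genes, the related lists, the markers and the tests were chosen with earlier results of these data known. All 44 genes may be named; of related lists up to 4 counted genes per comparison with at least 100 reads, and of markers the 3 most abundant and those at 0, besides genes named in full for a count. Folds and exact 95% Clopper-Pearson intervals were computed from reads scaled to library totals (Python 3.11.15, scipy 1.17.1), and log2 ratios from RPKM plus 0.5. Reads carried no molecular identifiers, so intervals cover counting error only. The labels do not give separate cultures, and each of the 5 comparisons sets 1 library against another without a p-value. The common test and the test of the difference used edgeR 4.0.16 (R 4.3.3) on the counts with TMM scaling and at least 20 reads, and DESeq2 1.42.0 as an alternative, adjusted over all genes at a threshold of 0.05. Simulated data with known changes were used to test the size rule and both edgeR fits. The simulated counts for the size rule varied by counting error alone, and those for edgeR had a fixed dispersion. They cannot show how the methods fare with the unmeasured variation between cultures. Other alternatives were pseudocounts of 0.1 and 1, no RPKM minimum, at least 100 reads, and scaling by TMM or DESeq2 size factors. Unique-read counting can understate genes with near-identical copies, and reads were not separated by strand.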

Additional observations from a re-analysis of the deposited data

How the results depend on the processing

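The counts with PD0325901 changed little with pseudocount, minimum or scaling, at 31 to 32 of the 44 genes in KH2 cells and 25 to 27 in Erk KO cells, with 0 lower throughout. The common test depended on its design. The 36 genes that rose became 0 with no cell state block and 23 when all 6 libraries were fitted in 3 states, which takes the 48 and 96 hour libraries as replicates. The 1 gene that fell became 0 with no block, with 6 libraries and with DESeq2. Over all genes, the 894 that rose and 432 that fell became 338 and 103 with DESeq2, 0 and 0 with no block, and 103 and 15 with 6 libraries. With DESeq2 size factors in edgeR they became 1191 and 739. At 96 hours without Dox, a pseudocount of 0.1 counted 2 lower genes in place of 1, adding Ccdc80. The share of higher genes among all those counted at 96 hours was 78.7%, against 70.7% with TMM scaling and 68.4% with DESeq2 size factors, while 5 matrix genes were higher and 1 lower under each of the 3. In the line with Dox against KH2, 15 to 22 matrix genes were lower, and 1325 to 3117 of all genes. Over all single-gene values and alternatives, 1601 kept their status, called or not called, 10 gained a call and 61 lost one. Of those lost, 37 were in the common test with no cell state block and 14 in that with 6 libraries. None of the called values changed sign. The cause of these shifts was not tested. No paired analysis was possible because of single libraries per group, as far as replicate numbers go; cell state does pair the libraries of the common test, and its counts with and without that block are given above. Genes with few reads, Eln and Adamts5 above all, are limited by depth.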

Other observations

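A list of 15 hypoxia-inducible genes outside the matrix was written after the values of the collagen hydroxylases and lysyl oxidases had been seen, so its counts support nothing independently. At 96 hours without Dox 8 of the 15 were higher than with Dox and 0 lower, and at 48 hours 3 were higher and 1 lower. In the line with Dox 11 were lower than in KH2 cells and 0 higher. With PD0325901 1 was higher in KH2 cells and 0 in Erk KO cells, and 0 were lower in either. In the engineered line the summed level was 331 RPKM with Dox, 384 RPKM after 48 hours and 765 RPKM after 96 hours without it. They were 1454 RPKM in treated and 1369 RPKM in untreated KH2 cells, and 863 RPKM in treated Erk KO cells. Bnip3, a mitochondrial autophagy gene, had 30.99, 67.02 and 244 RPKM with Dox, after 48 hours and after 96 hours. Ndrg1 had 2.78, 12.4 and 49.3 RPKM and Egln3, an oxygen-sensing prolyl hydroxylase, 6.31, 4.97 and 28.2 RPKM in the same conditions. Bnip3 was at 326 RPKM in treated and 279 RPKM in untreated KH2 cells. Oxygen and culture density were not measured in these files, and no relation between these genes and the collagen-modifying enzymes was tested.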
